A study of Mus musculus with 36 samples.

Results

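The comparison described here spans the end of the night in normoxic mouse liver, from ZT20 to ZT0, where ZT0 is lights on and ZT20 lies 4 h earlier in the cycle. It rests on 6 of the 36 RNA sequencing libraries of the series, the 3 of ZT0 and the 3 of ZT20 in normoxia, which were taken by time point and condition alone. The study asked how 4 weeks of intermittent hypoxia (IH) alter the daily program of the liver, and these mice were its controls, exposed to cycles of air in place of hypoxia. All were wild-type male C57BL/6JRj mice, 16 weeks old, kept in a light-dark cycle with chow at all times and not fasted before collection. Each library came from the snap-frozen liver of a separate mouse, so that each difference is between groups of animals and not within an animal. The labels do not say in which order the time points were collected. Differences are given as ZT0 minus ZT20.

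Mice feed mostly at night, and the end of the night is when feeding wanes and the rest phase with its partial fast begins. In the liver this transition runs alongside the molecular clock, in which BMAL1 with CLOCK or NPAS2 drives the PER, CRY and REV-ERB repressors, and PAR bZIP factors such as DBP and TEF carry the rhythm to output genes. Hepatic genes of glucose release, lipid synthesis and glycogen turnover respond both to that clock and to insulin, glucagon and glucocorticoids.

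The values deposited for each gene symbol were FPKM, fragments scaled to transcript length and to the size of the library, with no counts, so the depth behind a value is unknown. The FPKM of the 6 libraries summed to between 567374 and 607777, and between 15690 and 16049 symbols listed on 1 row were above 0. Across genes the libraries correlated with r from 0.989 to 0.993 within a time point and from 0.985 to 0.990 between the 2 time points. The 9 hepatocyte markers measured, such as Alb and Cps1, summed to between 52709 and 56237 FPKM at ZT20 and between 43634 and 50739 FPKM at ZT0. The members went both ways, 4 with a positive and 5 with a negative difference. Their median was -0.03 on the log2 scale, against 0.05 over all genes tested. Of the 9 pancreas markers measured, 6 were at 0 in all 6 libraries, among them Prss2, Ins1 and Ins2, and the list summed to between 8.43 and 9.82 FPKM at ZT20 and between 13.0 and 20.7 FPKM at ZT0. Of the 6 adipose markers, 3 were at 0, and sums of the Kupffer cell and leukocyte, endothelial, stellate cell, cholangiocyte, erythroid and adipose markers overlapped between the time points. In whole liver, fewer cells of a type and less RNA per cell cannot be told apart.

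Among the genes described here, Igfbp1, Lpin1, Thrsp and Pck1 were lower at ZT0, with log2 differences from -3.84 to -1.71, and Id3, Actg1 and Bcl3 were higher, with differences from 1.10 to 1.76. Differences were tested with limma on log2(FPKM + 1) in 13215 genes whose mean across the 36 libraries reached 0.1 FPKM. After Benjamini-Hochberg adjustment 0 genes (0%) passed 0.05, the smallest value being 0.0569, and 2266 genes (17.1%) had an unadjusted P under 0.05. At an unadjusted P of 0.01 or less, the study's own threshold for comparing groups, 583 genes were higher at ZT0 (4.41% of those tested) and 167 lower (1.26%), 750 in all, where 132 would pass by chance alone. With each library scaled by its median ratio the split was 292 higher and 319 lower, so that 47.8% of the genes at this threshold were higher, in place of 77.7%. It was 281 and 309 after quantile normalization. The excess of higher genes was thus not kept under these scalings. The counts of the lists below, and the shares of all genes set beside them, are those without such scaling. The counts also changed when single libraries were left out. Each such fit has fewer mice and so less power, here and for the single genes below. Higher genes numbered 262 without ZT20 replicate 1, 308 without ZT20 replicate 3, 351 without ZT0 replicate 3 and 570 without ZT0 replicate 2. Lower genes numbered 110 without ZT0 replicate 3 and 189 without ZT0 replicate 1. The part of the lost power in these shifts was not tested.

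The genes higher at ZT0 differed by less than those lower. Their median difference was 0.36 on the log2 scale and that of the lower genes -0.49, against 0.05 over all genes tested. Differences of at least 1 on the log2 scale at that threshold were found in 6 higher and 28 lower genes. The groups did not overlap, all 3 libraries of one time point lying beyond all 3 of the other, in 2402 genes higher at ZT0 (18.2%) and 692 lower (5.24%). A positive difference of any size was found in 65.1% of all genes tested. Exons of the higher genes had a median GC content of 54.3%, those of the lower genes 47.9% and those of all genes 49.7%. The 3 libraries of ZT0 had a positive slope of level on GC content, 0.02 to 0.04 per 10% on the log2 scale, and those of ZT20 a negative one, -0.03 to -0.02. With the trends with GC content and length removed there were 269 higher and 323 lower genes, and the part of base composition in single genes was not tested.

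**Figure D1:**
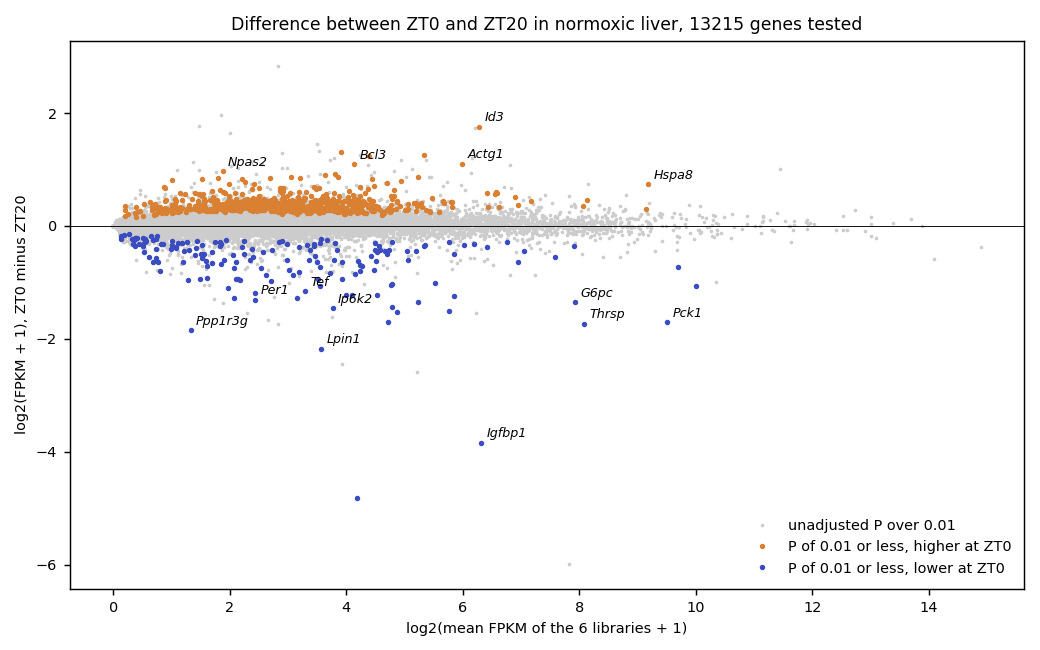
Each of the 13215 genes tested by its level (x axis, log2 of the mean FPKM of the 6 libraries plus 1) and its difference between ZT0 and ZT20 (y axis, log2). Orange points (583 genes) were higher and blue points (167 genes) lower at ZT0 at an unadjusted P of 0.01 or less, among them 6 and 28 genes with a difference of at least 1.

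A second fit took the spread between mice from 15 normoxia libraries, leaving out the ZT12 group with its 1 wide library, and called 266 genes higher (2.01%) and 63 lower (0.477%) at an adjusted p of 0.05. Of these 329 genes, 317 were among the 750. With all 18 normoxia libraries only 7 genes were higher and 7 lower at that threshold. Id3, Npas2, Slc34a2, Pck1, Ppp1r3g, Upp2, Mettl20, Mknk2, Trp53inp1 and Lpin2 were among them. Igfbp1, Lpin1, Thrsp, Angptl4, Ip6k2, Actg1, Bcl3, Tef and Usp2 were not. Adjusted p-values from limma are given below for the 6 libraries and, where so named, for this 15-library fit, whose differences are the same and whose spread is shared with the other times of day.

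Pck1, G6pc and Igfbp1, genes that respond to fasting and insulin, were lower at ZT0. Pck1, the cytosolic enzyme that commits carbon to gluconeogenesis, lies at chr2:173153048-173159273 (mm10). It measured 1026, 924 and 1373 FPKM at ZT20 and 273, 303 and 449 FPKM at ZT0. No overlap between the groups was a condition for naming this gene. The mean was 3.24-fold higher at ZT20 (log2 difference -1.71, standard error 0.23, adjusted p = 0.0952, and 0.0052 in the 15-library fit). G6pc, which releases free glucose, measured 331, 269 and 428 FPKM at ZT20 and 78.0, 200 and 145 FPKM at ZT0 (log2 difference -1.35, standard error 0.35, adjusted p = 0.157, and 0.082 in the 15-library fit). Here too each library of ZT20 was above each of ZT0. Igfbp1, at chr11:7197782-7202546, encodes a secreted binding protein of insulin-like growth factors that insulin represses. Its levels of 150, 159 and 125 FPKM at ZT20 stood against 4.86, 5.23 and 27.3 FPKM at ZT0, the widest gap of any gene named here by a log2 difference (-3.84, standard error 0.58, adjusted p = 0.0952, and 0.035 in the 15-library fit) other than a small nucleolar RNA. The fold of the means was 11.6, with 1 library of ZT0 well above the other two.

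Other members of the gluconeogenesis and glycolysis list differed less. Of its 23 tested genes, 3 were lower at the P threshold of 0.01 (Pck1, G6pc and Pfkfb1; 13.0%, against 1.26% of all genes) and 1 was higher (Slc16a1; 4.35%, against 4.41%), with a median difference of -0.10 against 0.05 over all genes. The groups did not overlap in 7 lower genes (30.4%, against 5.24% of all genes) and 1 higher gene (4.35%, against 18.2%). Pfkfb1, a liver enzyme that makes and breaks fructose 2,6-bisphosphate, averaged 22.9 ± 1.96 FPKM at ZT20 and 13.8 ± 3.17 FPKM at ZT0 (SD, n = 3; log2 difference -0.71). It no longer reached that threshold without ZT20 replicate 1 or ZT0 replicate 3, with a largest P of 0.012 over the alternatives by limma. Slc16a1, a lactate and pyruvate carrier, averaged 12.8 FPKM at ZT20 and 15.6 FPKM at ZT0.

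Of the insulin, growth hormone and IGF list, 2 of 25 tested genes were lower at that threshold, Igfbp1 and Irs2 (8%, against 1.26% of all genes), and 0 were higher (against 4.41%). Irs2, an adaptor of the insulin receptor, measured 2.42, 4.34 and 3.68 FPKM at ZT20 and 1.82, 1.48 and 1.99 FPKM at ZT0 (log2 difference -0.68, adjusted p = 0.154). The difference did not reach the P threshold in any fit without ZT20 replicate 2 or 3 or without any 1 of the ZT0 libraries. The median of the list was -0.03.

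Of 23 tested genes of fatty acid and triglyceride synthesis, 17 had a negative difference, 4 were lower at the P threshold (17.4%, against 1.26% of all genes) and 0 were higher, with a median of -0.28. ZT20 replicate 1 was the highest of the 6 libraries for 12 of the 23 genes, and without it the median was -0.22. Over all 13215 genes tested, ZT20 replicates 1, 2 and 3 were highest for 1014, 2109 and 1342 genes. ZT0 replicates 1, 2 and 3 were highest for 3212, 2422 and 3116. These are the background to such counts in this and later lists. Lpin1, a phosphatidate phosphatase and transcriptional coactivator at chr12:16535669-16610966, measured 15.8, 14.4 and 25.2 FPKM at ZT20 and 3.17, 2.42 and 4.15 FPKM at ZT0. Its mean was 5.69-fold higher at ZT20 with no overlap, as the rule for naming it required (log2 difference -2.18, standard error 0.23, adjusted p = 0.0952, and 0.037 in the 15-library fit). Thrsp, known as Spot 14 and tied to lipogenesis, measured 505, 368 and 361 FPKM at ZT20 and 84.8, 174 and 121 FPKM at ZT0 (log2 difference -1.73, standard error 0.27, adjusted p = 0.0952, and 0.018 in the 15-library fit). The other two were Pnpla3, a lipid droplet acyltransferase and lipase (log2 difference -0.79), and Acacb, the acetyl-CoA carboxylase that governs mitochondrial fatty acid entry (-0.63). Scd1, the stearoyl-CoA desaturase, did not pass, with 2198, 1504 and 1390 FPKM at ZT20 and 561, 1374 and 767 FPKM at ZT0. Srebf1, which encodes the master regulator of these enzymes, pointed the other way, with a mean of 37.7 ± 10.8 FPKM at ZT20 and 62.0 ± 14.3 FPKM at ZT0 (SD, n = 3), groups that overlapped (adjusted p = 0.23).

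In the fatty acid oxidation and ketogenesis list 2 of 37 genes were lower, Angptl4 and Cyp4a12a (5.41%, against 1.26% of all genes), 0 were higher (against 4.41%) and the median was 0.05, equal to that of all genes. Angptl4, a fasting-induced inhibitor of lipoprotein lipase, measured 73.3, 69.5 and 96.8 FPKM at ZT20 and 40.0, 28.4 and 30.9 FPKM at ZT0 (log2 difference -1.25, standard error 0.17, adjusted p = 0.0952, and 0.027 in the 15-library fit). The cholesterol synthesis list of 25 genes had a median of 0.12, with 0 genes higher and 1 lower at the threshold (4%, against 1.26% of all genes). ZT0 replicate 3 was the highest library for 13 of the 25, and without it the median was 0.04. Of 22 bile acid genes 1 was higher (4.55%, against 4.41% of all genes), Hsd3b7, a hydroxysteroid dehydrogenase of bile acid synthesis, with a mean of 236 ± 30.0 FPKM at ZT20 and 323 ± 29.9 FPKM at ZT0 (SD, n = 3).

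Ppp1r3g, which targets protein phosphatase 1 to glycogen, was the 1 gene of 20 in the glycogen list past the threshold (5% lower, against 1.26% of all genes). It measured 1.86, 2.18 and 4.91 FPKM at ZT20 and 0.07, 0.01 and 0.06 FPKM at ZT0. All ZT0 libraries were thus close to 0, and the log2 difference of -1.85 (standard error 0.26, adjusted p = 0.0952, and 0.005 in the 15-library fit) understates the ratio of such low values. The glycogen synthase of liver, Gys2, had no overlap but a smaller difference (-0.25), from 41.9 ± 1.91 to 35.2 ± 3.22 FPKM (SD, n = 3, adjusted p = 0.22).

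Of the 33 genes of amino acid breakdown and the urea cycle, 25 had a negative difference, 3 were lower (Gpt2, Slc38a2 and Tat; 9.09%, against 1.26% of all genes) and 1 was higher (Nags; 3.03%, against 4.41%), with a median of -0.12. Without ZT0 replicate 2 the median was -0.02. Tat, the tyrosine aminotransferase and a classical glucocorticoid target, averaged 1021 ± 138 FPKM at ZT20 and 626 ± 155 FPKM at ZT0 (SD, n = 3). In the drug metabolism list 4 of 29 genes were lower (Sult1d1, Gsta1, Cyp3a11 and Cyp3a25; 13.8%, against 1.26% of all genes) and 0 higher, with a median of -0.15. ZT20 replicate 2 was the highest library for 18 of the 29, and without it the median was 0.03, with 15 positive differences. Cyp3a11, a major xenobiotic hydroxylase, measured 1111, 1911 and 1148 FPKM at ZT20 and 835, 586 and 549 FPKM at ZT0 (log2 difference -1.06, adjusted p = 0.151). Cyp3a, Gsta and Cyp4a12 genes have close paralogs, among which the estimates divide reads.

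The smallest P-values of all lay outside these lists. Ip6k2, an inositol hexakisphosphate kinase at chr9:108783796-108806337, measured 18.7, 18.8 and 19.2 FPKM at ZT20 and 6.98, 4.90 and 7.11 FPKM at ZT0 (log2 difference -1.46, standard error 0.13, adjusted p = 0.0569). Trp53inp1, a p53-induced stress protein, measured 16.2, 15.6 and 13.0 FPKM at ZT20 and 6.38, 6.63 and 6.66 FPKM at ZT0 (log2 difference -1.07, standard error 0.09, adjusted p = 0.0569). Mknk2, a kinase of the translation factor eIF4E, measured 32.9, 36.1 and 39.4 FPKM at ZT20 and 17.9, 15.4 and 18.1 FPKM at ZT0 (log2 difference -1.03, standard error 0.09, adjusted p = 0.0569). Genes were ranked by P on these same values, so groups far apart relative to their spread were part of the choice. Each of the 3 passed 0.05 in the 15-library fit (adjusted p from 0.0086 to 0.013). Txnip, an inhibitor of thioredoxin and of glucose uptake, measured 22.7, 21.9 and 21.2 FPKM at ZT20 and 12.7, 11.9 and 10.8 FPKM at ZT0 (log2 difference -0.85, standard error 0.07, adjusted p = 0.0569). Its spread was narrow at both time points but wider at other times of day, and the adjusted p in the 15-library fit was 0.14. These 4 genes, all lower, were also the only ones past an adjusted p of 0.05 under median-ratio scaling, quantile normalization, removal of the GC and length trend or a filter at a mean of 1 FPKM.

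The same rule, by smallest P with no overlap between groups, named 8 further lower genes. Lpin1, Pck1 and Angptl4 among them are given above. Upp2, a uridine phosphorylase, averaged 79.9 ± 16.8 FPKM at ZT20 and 27.3 ± 4.58 FPKM at ZT0, a 2.92-fold difference of the means (adjusted p = 0.005 in the 15-library fit). Mettl20, a methyltransferase of the electron transfer flavoprotein, averaged 39.2 ± 6.17 and 14.1 ± 3.65 FPKM (0.006). Mfsd2a, a transporter of lysophosphatidylcholine, averaged 21.2 ± 1.75 and 8.66 ± 2.19 FPKM (0.14), and Rasgef1b, an exchange factor of small GTPases, 4.68 ± 0.20 and 1.99 ± 0.49 FPKM (0.039; SD, n = 3 throughout). Snora28, a small nucleolar RNA, was listed at 0 in all 3 libraries of ZT0 and at 9.81, 34.6 and 58.3 FPKM at ZT20. Short transcripts of this kind are poorly measured in polyadenylated RNA.

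**Figure D2:**
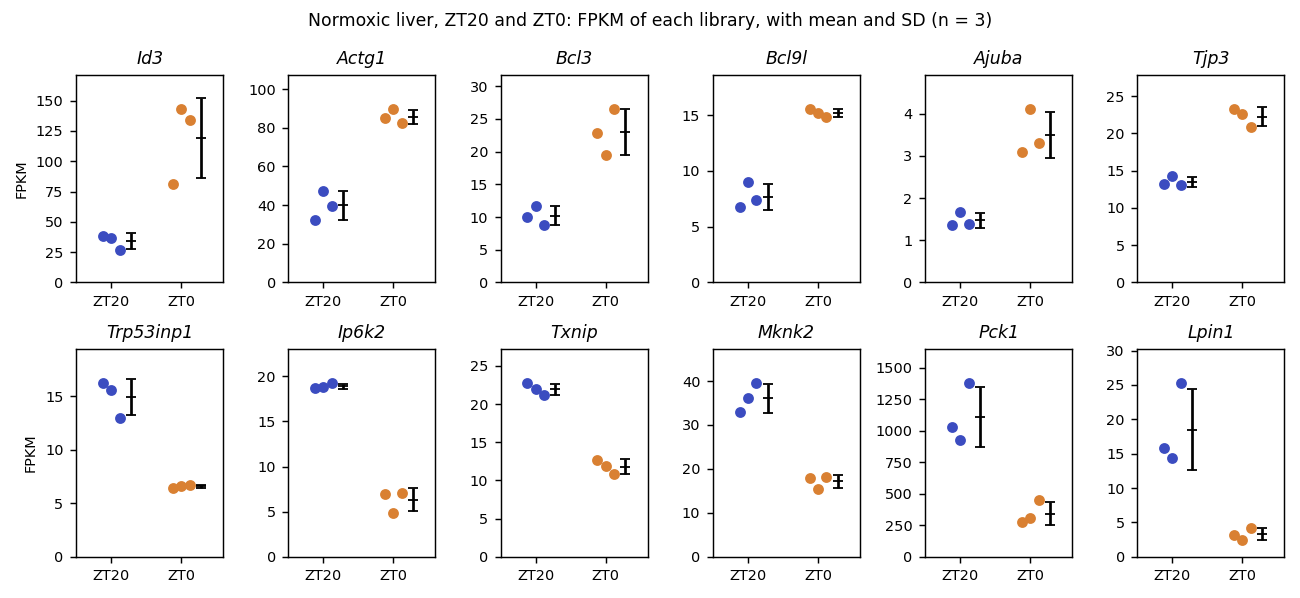
FPKM (y axis, from 0) of 12 genes chosen for display from those named by rank of P, 6 higher (top) and 6 lower (bottom) at ZT0. Points are the 3 libraries of ZT20 (blue) and of ZT0 (orange), with the mean and SD as black bars. No overlap between the groups was a condition for naming these genes. Pck1, for instance, measured 924 to 1373 FPKM at ZT20 and 273 to 449 FPKM at ZT0.

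Among the genes higher at ZT0, Id3 had the largest difference of those named. Id3, a dominant inhibitor of helix-loop-helix factors at chr4:136143497-136145755, measured 38.5, 36.9 and 26.8 FPKM at ZT20 and 81.6, 143 and 134 FPKM at ZT0. By the rule for naming it, the groups did not overlap (log2 difference 1.76, standard error 0.24, adjusted p = 0.0952, and 0.005 in the 15-library fit). Actg1, the cytoplasmic gamma actin at chr11:120345690-120348542, measured 32.4, 47.4 and 39.8 FPKM at ZT20 and 85.3, 89.6 and 82.3 FPKM at ZT0 (log2 difference 1.10, standard error 0.13, adjusted p = 0.0952, and 0.035 in the 15-library fit). Its coding sequence is close to that of beta actin, and how shared reads were divided is not given in the sources used here. Bcl3, a nuclear member of the I-kappa-B family, measured 9.99, 11.7 and 8.84 FPKM at ZT20 and 22.9, 19.5 and 26.5 FPKM at ZT0 (log2 difference 1.10, standard error 0.14, adjusted p = 0.0952, and 0.045 in the 15-library fit). At ZT16 Actg1 and Bcl3 had means of 132 ± 50.1 and 22.8 ± 12.0 FPKM (SD, n = 3), so that the mean at ZT20 was below those of both neighbouring time points for either gene.

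Several other genes named on this side encode proteins of cell junctions or the cell cortex, a group put together after the values were seen. Tjp3, which encodes the tight junction protein ZO-3 at chr10:81273207-81291581, measured 13.2, 14.3 and 13.0 FPKM at ZT20 and 23.3, 22.7 and 20.8 FPKM at ZT0 (log2 difference 0.68, standard error 0.07, adjusted p = 0.0952, and 0.07 in the 15-library fit). Its mean at ZT0 was the highest of the 6 normoxia time points, and at ZT12 it was 3.94 ± 1.30 FPKM (SD, n = 3). Ajuba, a LIM scaffold of adherens junctions, averaged 1.48 ± 0.18 FPKM at ZT20 and 3.50 ± 0.54 FPKM at ZT0. Pacsin3, a membrane-bending protein, averaged 22.1 ± 0.44 and 31.3 ± 0.99 FPKM. Cdc42ep1, an effector of the GTPase CDC42, averaged 9.08 ± 0.16 and 14.0 ± 1.15 FPKM, and Abi3, of the Abl interactor family, 4.95 ± 0.38 and 7.92 ± 0.56 FPKM (SD, n = 3 throughout). The 15-library adjusted p of these 4 genes lay between 0.0052 and 0.035.

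The rest of the named higher genes were of other kinds. Bcl9l, a coactivator of beta-catenin, measured 6.74, 9.00 and 7.35 FPKM at ZT20 and 15.5, 15.2 and 14.8 FPKM at ZT0 (log2 difference 0.90, standard error 0.10, and adjusted p = 0.013 in the 15-library fit). Slc30a10, a manganese exporter, averaged 9.22 ± 0.38 and 13.6 ± 0.55 FPKM, and Slc34a2, a phosphate cotransporter, 0.39 ± 0.01 and 1.27 ± 0.29 FPKM. Amigo3, a cell surface protein with leucine-rich repeats, averaged 0.74 ± 0.07 and 1.42 ± 0.08 FPKM (SD, n = 3). None of the 12 higher genes reversed in any of the alternatives tried.

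Npas2 was higher at ZT0, and several repressors and outputs of the clock, among them Per1, Per3, Nr1d2, Tef and Usp2, were lower. Of 18 tested core clock genes, 5 were lower at the P threshold of 0.01 (27.8%, against 1.26% of all genes), 1 was higher (5.56%, against 4.41%), 12 did not pass and the median difference was -0.36. Of 15 clock output genes, 4 were lower (26.7%), 0 were higher and the median was -0.50. ZT20 replicate 2 was the highest library for 9 of the 18 and 8 of the 15, and without it the medians were -0.27 and -0.41. Without ZT0 replicate 3 that of the core list was -0.23. Promoters of 9 of these 10 genes at the threshold were found in the RefSeq table of GRCm38.p6, 11 promoters in all, each reaching from 250 bases before to 50 after the start of a transcript. The exact E-box CACGTG, the element that BMAL1 with CLOCK or NPAS2 binds, was found in promoters of 3 genes, Ciart, Per1 and Tef, and the D-box TTANGTAA, which DBP and TEF bind, in that of Per3. Both were searched on both strands, and they do not overlap one another here. These 4 promoters, 1 for each of the genes, are shown because they hold a match. Another promoter of Per1 held none, and neither did those of Dbp, Nampt, Nr1d2 and Usp2, also lower, or of Npas2, which was higher. Capitals mark the matches.
Ciart, chr3:95882179-95882478, minus strand: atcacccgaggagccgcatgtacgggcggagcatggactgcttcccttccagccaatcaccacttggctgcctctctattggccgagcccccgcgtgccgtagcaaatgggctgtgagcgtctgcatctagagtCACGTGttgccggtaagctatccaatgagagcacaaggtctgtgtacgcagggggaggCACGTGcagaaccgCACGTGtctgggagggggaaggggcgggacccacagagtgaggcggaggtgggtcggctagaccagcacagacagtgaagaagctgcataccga
Per1, chr11:69098699-69098998, plus strand: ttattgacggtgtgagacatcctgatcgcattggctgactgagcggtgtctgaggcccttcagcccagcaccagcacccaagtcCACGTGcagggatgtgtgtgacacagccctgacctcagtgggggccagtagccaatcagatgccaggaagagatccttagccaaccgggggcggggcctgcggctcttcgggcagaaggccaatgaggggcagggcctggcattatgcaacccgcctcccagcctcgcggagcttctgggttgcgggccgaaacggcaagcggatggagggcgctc
Tef, chr15:81802423-81802722, plus strand: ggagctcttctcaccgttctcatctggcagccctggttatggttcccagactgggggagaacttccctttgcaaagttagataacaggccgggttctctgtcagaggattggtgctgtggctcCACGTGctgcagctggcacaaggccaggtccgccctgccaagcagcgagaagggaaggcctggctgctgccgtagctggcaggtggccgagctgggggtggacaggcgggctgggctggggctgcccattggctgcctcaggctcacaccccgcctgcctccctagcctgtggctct
Per3, chr4:151044616-151044915, minus strand: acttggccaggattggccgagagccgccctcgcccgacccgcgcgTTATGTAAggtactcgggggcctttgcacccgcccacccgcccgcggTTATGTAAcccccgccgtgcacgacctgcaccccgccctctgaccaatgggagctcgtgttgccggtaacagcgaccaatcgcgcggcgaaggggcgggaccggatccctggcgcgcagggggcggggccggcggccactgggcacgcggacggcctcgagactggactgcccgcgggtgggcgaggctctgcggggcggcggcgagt

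Ciart held 3 E-boxes, the first at position -116 from the start, Per1 held 1 at -166 and Tef 1 at -127, with another in the promoter of a second Tef transcript at -138. Per3 held 2 D-boxes, the first at -205. Of all 32851 promoters in the table, 7.15% hold the E-box letters and 2.32% those of the D-box. Among the 12691 promoters of genes tested, the shares are 9.80% and 1.64%. The RORE TAGGTCA (2.61% of all promoters) and the CRE TGACGTCA (1.79%) matched in none of the 11. A match is a description of letters and not of binding.

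The activators Arntl and Clock did not pass the test. Arntl, which encodes BMAL1, measured 9.01, 10.8 and 10.4 FPKM at ZT20 and 12.3, 9.71 and 10.2 FPKM at ZT0, groups that overlapped (log2 difference 0.08, standard error 0.11). Clock averaged 3.44 ± 0.42 and 3.81 ± 0.16 FPKM (SD, n = 3). Npas2, the partner that can replace CLOCK, lies at chr1:39193731-39363236. It measured 1.15, 1.54 and 1.77 FPKM at ZT20 and 4.26, 3.05 and 4.33 FPKM at ZT0. The groups were apart, with a 2.62-fold higher mean at ZT0 (log2 difference 0.97, standard error 0.14, adjusted p = 0.0952, and 0.0078 in the 15-library fit), and Npas2 averaged 0.03 FPKM at ZT16.

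Of the repressors on the negative limb, Per1, Per3, Ciart and Nr1d2 were lower at the P threshold, and Per2, Cry1, Cry2, Nr1d1, Bhlhe40 and Bhlhe41 did not pass. Per1 measured 5.78, 6.94 and 6.74 FPKM at ZT20 and 1.15, 4.45 and 1.36 FPKM at ZT0 (log2 difference -1.31, standard error 0.34, adjusted p = 0.16, and 0.055 in the 15-library fit). No library of ZT0 reached those of ZT20, but ZT0 replicate 2 lay well above the other two. Per3 measured 0.82, 1.37 and 0.71 FPKM at ZT20 and 0.27, 0.34 and 0.15 FPKM at ZT0 (log2 difference -0.63, adjusted p = 0.124, and 0.042 in the 15-library fit). Ciart, a repressor also known as CHRONO, measured 0.63, 0.92 and 0.47 FPKM at ZT20 and 0.12, 0.40 and 0.13 FPKM at ZT0 (log2 difference -0.46, adjusted p = 0.168). Per1 and Ciart did not reach the P threshold when either ZT20 replicate 1 or 2 or ZT0 replicate 1 or 3 was left out, Per1 also not without ZT20 replicate 3. Over the alternatives the largest P of limma was 0.028 for Per1 and 0.11 for Ciart.

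Per2, Cry1 and Cry2 had negative differences with overlapping groups. Per2 averaged 4.07 ± 1.24 FPKM at ZT20 and 2.97 ± 1.14 FPKM at ZT0. Cry1 measured 12.2, 17.9 and 13.9 FPKM at ZT20 and 12.9, 9.14 and 7.52 FPKM at ZT0 (log2 difference -0.54, adjusted p = 0.261), and Cry2 averaged 7.70 ± 0.97 and 5.21 ± 1.71 FPKM (SD, n = 3). ZT0 replicate 1 was the library that met the ZT20 range for Cry1 and Cry2.

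Nr1d2, which encodes the repressor REV-ERB-beta, measured 2.96, 2.15 and 2.21 FPKM at ZT20 and 1.40, 1.09 and 1.46 FPKM at ZT0 (log2 difference -0.57, standard error 0.12, adjusted p = 0.124, and 0.024 in the 15-library fit). Its partner Nr1d1, which encodes REV-ERB-alpha, was at its daily low at both times, with 1.67, 1.17 and 1.35 FPKM at ZT20 and 1.64, 0.79 and 1.88 FPKM at ZT0 (standard error of the log2 difference 0.19). By ZT4 its mean was 39.1 ± 14.3 FPKM (SD, n = 3).

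Of the output genes, Tef measured 11.5, 15.1 and 10.8 FPKM at ZT20 and 5.92, 5.65 and 3.68 FPKM at ZT0 (log2 difference -1.16, standard error 0.18, adjusted p = 0.0961, and 0.013 in the 15-library fit). Usp2, a ubiquitin protease under clock control, measured 4.45, 5.70 and 4.64 FPKM at ZT20 and 1.52, 2.09 and 0.89 FPKM at ZT0 (log2 difference -1.27, standard error 0.19, adjusted p = 0.0952, and 0.018 in the 15-library fit). The groups did not overlap for either gene, and neither left the P threshold in any alternative. Dbp was near its daily low, with means of 1.00 ± 0.37 FPKM at ZT20 and 0.35 ± 0.17 FPKM at ZT0 (SD, n = 3), and lost the threshold without ZT20 replicate 2 or 3 or ZT0 replicate 2 or 3. Nampt, the rate-limiting enzyme of NAD salvage, averaged 12.1 ± 1.63 and 8.07 ± 1.66 FPKM (SD, n = 3) and lost it in 12 of 19 alternatives. Nfil3, a repressor of D-boxes, averaged 26.9 ± 2.96 and 26.2 ± 3.33 FPKM (SD, n = 3), and Hlf, the third PAR bZIP factor, 6.42 ± 1.34 and 6.53 ± 1.18 FPKM, both with overlapping groups.

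**Figure D3:**
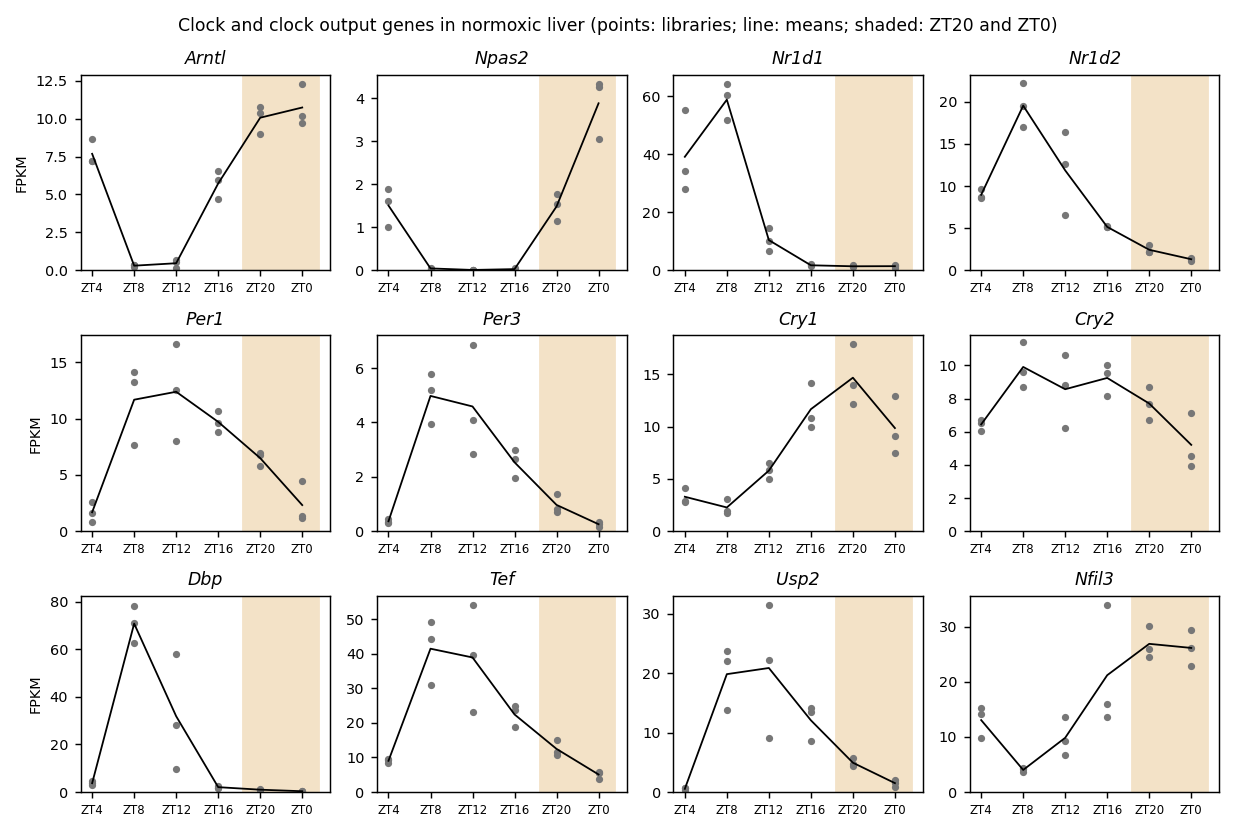
FPKM (y axis, from 0) of 12 clock and output genes in the 18 normoxia libraries by time point (x axis, ZT4 to ZT20 and then ZT0), grey points for single libraries and a black line through the means, with ZT20 and ZT0 shaded. Npas2 had its highest mean at ZT0 (3.88 FPKM), Tef and Usp2 were lower at ZT0 than at ZT20, and Nr1d1 was low at both (1.39 and 1.44 FPKM).

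Of 30 genes of ER chaperones and the unfolded protein response, 26 had a positive difference (86.7%, against 65.1% of all genes), 3 were higher at the P threshold (10.0%, against 4.41% of all genes) and 0 were lower, with a median of 0.20. Dnajb9, an ER co-chaperone, measured 26.2, 24.6 and 24.3 FPKM at ZT20 and 34.7, 68.9 and 41.5 FPKM at ZT0 (log2 difference 0.86, adjusted p = 0.164). Ddit3, the stress factor CHOP, measured 4.88, 5.75 and 5.81 FPKM at ZT20 and 8.68, 15.6 and 8.89 FPKM at ZT0 (log2 difference 0.85, adjusted p = 0.154). Xbp1, a transcription factor of the response, measured 88.4, 67.6 and 72.6 FPKM at ZT20 and 98.3, 127 and 116 FPKM at ZT0 (log2 difference 0.58, adjusted p = 0.144). The P threshold was lost for Xbp1 without ZT20 replicate 2 or 3 or ZT0 replicate 2 or 3, and for Ddit3 without any 1 of the ZT20 libraries, while both lost it under median-ratio scaling. ZT0 replicate 2 was the highest of these 3 genes, and it was the highest of the 6 libraries for 20 of the 30 genes, such as Hspa5, the major ER chaperone, with 265, 201 and 163 FPKM at ZT20 and 299, 509 and 270 FPKM at ZT0. Without it the median of the list was 0.11, with 23 positive differences, against 0.07 over all genes.

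Of 22 heat shock and cold-inducible genes, 15 had a positive difference (68.2%, against 65.1% of all genes), 2 were higher (Hspa8 and Hspa4; 9.09%, against 4.41%) and 0 lower, with a median of 0.25. Hspa8, the constitutive cytosolic HSP70, measured 435, 402 and 458 FPKM at ZT20 and 696, 863 and 616 FPKM at ZT0 (log2 difference 0.73, standard error 0.14, adjusted p = 0.109, and 0.031 in the 15-library fit). The groups were apart and the gene kept the P threshold in all alternatives. ZT0 replicate 2 was again the highest library for 14 of the 22 genes, and without it the median was 0.20.

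The interferon-stimulated genes turned on a single library. All 26 tested had a positive difference and their median was 0.52, the largest of the 20 lists, but 0 passed the P threshold of 0.01 and the groups did not overlap in 7 (26.9%, against 18.2% of all genes). Each of the 26 was highest in ZT0 replicate 1. Isg15, a ubiquitin-like modifier, measured 5.39, 7.00 and 7.53 FPKM at ZT20 and 25.3, 7.99 and 11.4 FPKM at ZT0. Irgm1, an immunity-related GTPase, measured 19.5, 22.6 and 18.4 FPKM at ZT20 and 75.2, 26.0 and 27.0 FPKM at ZT0. Without that library the median was 0.13, with 19 of 26 positive, against 0.04 over all genes.

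Other lists too had a library that stood highest for many members. Cytosolic ribosomal proteins were highest in ZT0 replicate 3 for 75 of 103 genes and the TCA cycle and respiratory chain in ZT20 replicate 2 for 52 of 104, and their medians were 0.03 and -0.02, or 0.01 and 0.02 without those libraries. In the ribosomal list, defined by symbol prefix, 3 genes were higher (2.91%, against 4.41% of all genes), Rps6ka4, Rps19bp1 and Rpl37rt, a kinase, a binding protein and a pseudogene rather than subunits of the ribosome. In the TCA and respiratory list 3 were higher (2.88%, against 4.41%), Cs, Ndufaf3 and Idh3a, the citrate synthase among them with 38.0 ± 1.41 and 46.0 ± 2.92 FPKM (SD, n = 3). Of 49 proteasome genes 1 was higher (2.04%, against 4.41%), Psmd3, a lid subunit. A positive difference was found in 45 (91.8%, against 65.1% of all genes), and the groups did not overlap in 15 (30.6%, against 18.2%). ZT0 replicate 3 was the highest library for 31 of the 49, and without it the median fell from 0.12 to 0.07, with 40 positive. In the acute phase list 0 of 24 passed, and ZT0 replicate 3 was the highest library for 17. Without it the median turned from 0.16 to -0.09. Saa1, its most variable member, ran from 41.6 to 2242 FPKM within ZT20 and from 49.8 to 1235 FPKM within ZT0. The cell cycle list had 2 of 26 lower (7.69%, against 1.26% of all genes), Birc5 and Mcm5, both under 1 FPKM, and the glucocorticoid and immediate early list 1 of 25 lower (4%), Cebpb, a liver transcription factor (25.8 ± 1.76 and 18.5 ± 1.67 FPKM, SD, n = 3).

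**Figure D4:**
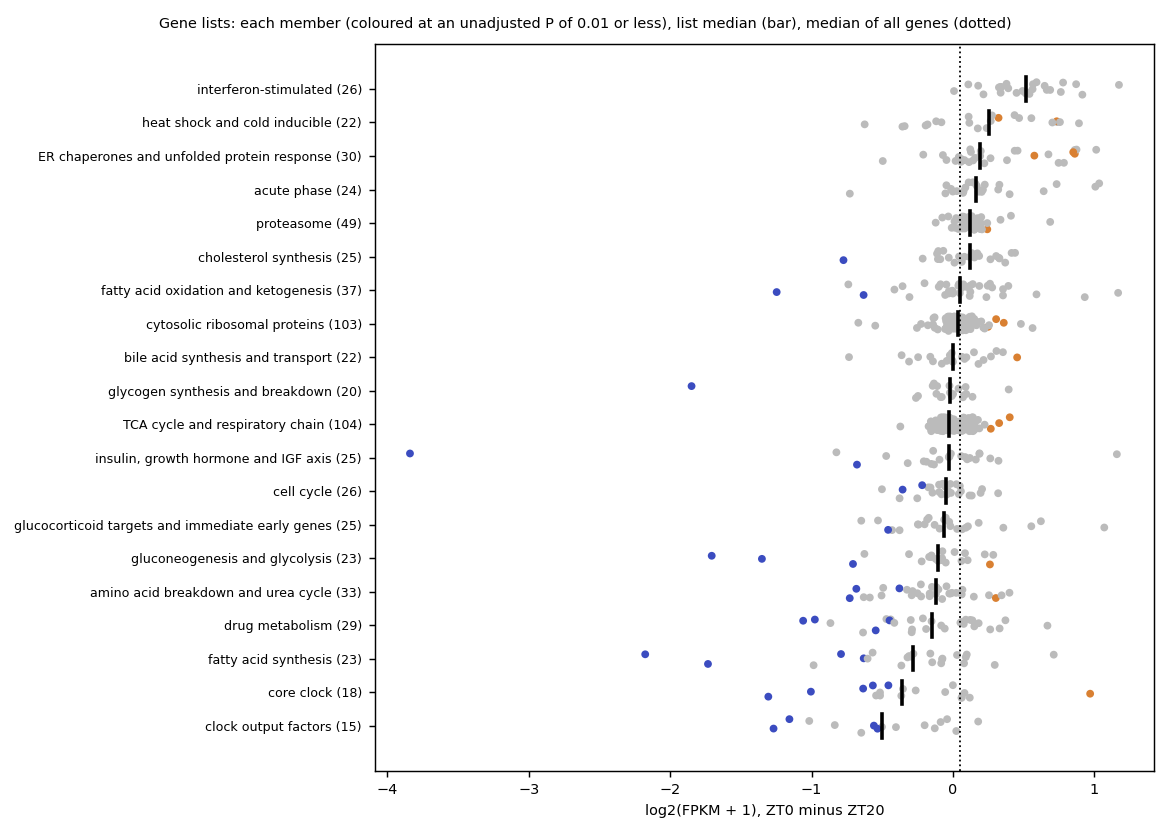
Log2 difference between ZT0 and ZT20 (x axis) of each tested member of 20 gene lists (y axis, number of genes tested in brackets), coloured at an unadjusted P of 0.01 or less, orange higher and blue lower, with the list median as a bar and the median of all genes (0.05) dotted. The clock output (-0.50), core clock (-0.36) and fatty acid synthesis (-0.28) lists lie lowest, and the interferon list (0.52) highest with no coloured member.

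The same 4 h were then compared in IH, in 6 other mice of the same strain, sex and age, of which 3 were collected at each time point after 4 weeks of hypoxic cycles from ZT0 to ZT8. The question is whether the step from ZT20 to ZT0 differed between the conditions. In the test of that difference over the 12 libraries (limma, interaction of condition with time), 0 genes passed an adjusted p of 0.05 and the smallest was 0.884. Before adjustment, P was under 0.05 in 711 genes (5.38%) and 0.01 or less in 103 (0.779%). In IH alone 55 genes were higher (0.416%) and 84 lower (0.636%) at ZT0 at a P of 0.01 or less. Of the 583 genes higher in normoxia, 455 (78.0%) had a positive difference in IH, where 51.1% of all genes did, and of the 167 lower genes 129 (77.2%) had a negative one, against 48.7%. Their medians were 0.36 in normoxia and 0.09 in IH, and -0.49 and -0.18, though the genes had been picked on the normoxia values. The lower lists shared 19 genes, 11.4% of the normoxia list and 22.6% of the IH list, and the higher lists 3, 0.515% and 5.45%.

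Several clock and output genes had differences of the same sign in both conditions. Tef had a difference of -1.16 in normoxia and -1.56 in IH, Usp2 of -1.27 and -2.12, Per3 of -0.63 and -0.71 and Per1 of -1.31 and -1.27. Others differed more. Nr1d1 had a difference of 0.00 in normoxia and 1.68 in IH, Nr1d2 of -0.57 and 0.48, Per2 of -0.36 and -1.61 and Bhlhe41 of 0.06 and -0.16. Before adjustment these 4 of the 18 core clock genes had an interaction P of 0.01 or less by limma (0.0017, 0.0037, 0.0090 and 0.0048). Of the 15 clock output genes 0 did, and of all genes 0.779%. After adjustment the interaction did not pass for any of the 4 (adjusted p = 0.884). Bhlhe41 was under 1 FPKM in each of these libraries. Its means at ZT20 and ZT0 were 0.10 and 0.15 FPKM in normoxia and 0.24 and 0.11 FPKM in IH. Igfbp1, Pck1, Lpin1 and Ip6k2 had values nearer to 0 in IH. Igfbp1 had a difference of -3.84 in normoxia and 0.53 (standard error 1.03) in IH, Pck1 of -1.71 and -0.25 (0.86), Lpin1 of -2.18 and -0.56 (0.59) and Ip6k2 of -1.46 and 0.05 (0.58), each with an interaction adjusted p of 0.884. Their standard errors in IH were larger than in normoxia. Replicate 1 was the lowest IH library of ZT0 for each of these genes. Igfbp1 measured 21.3, 234 and 129 FPKM in the IH libraries of ZT0, and Pck1 134, 845 and 802 FPKM. Lpin1 measured 4.08, 9.79 and 15.4 FPKM there, and Ip6k2 5.66, 19.3 and 26.4 FPKM. At ZT20 in IH, Pck1 measured 212, 782 and 920 FPKM. The part of single libraries in the IH differences was not tested. The smallest interaction P belonged to Tsacc, a co-chaperone, with a difference of 0.43 in normoxia and -0.36 in IH, followed by Actg2 (-0.08 and 0.28) and Gm9199 (-0.25 and 0.03), both of them under 1 FPKM.

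**Figure D5:**
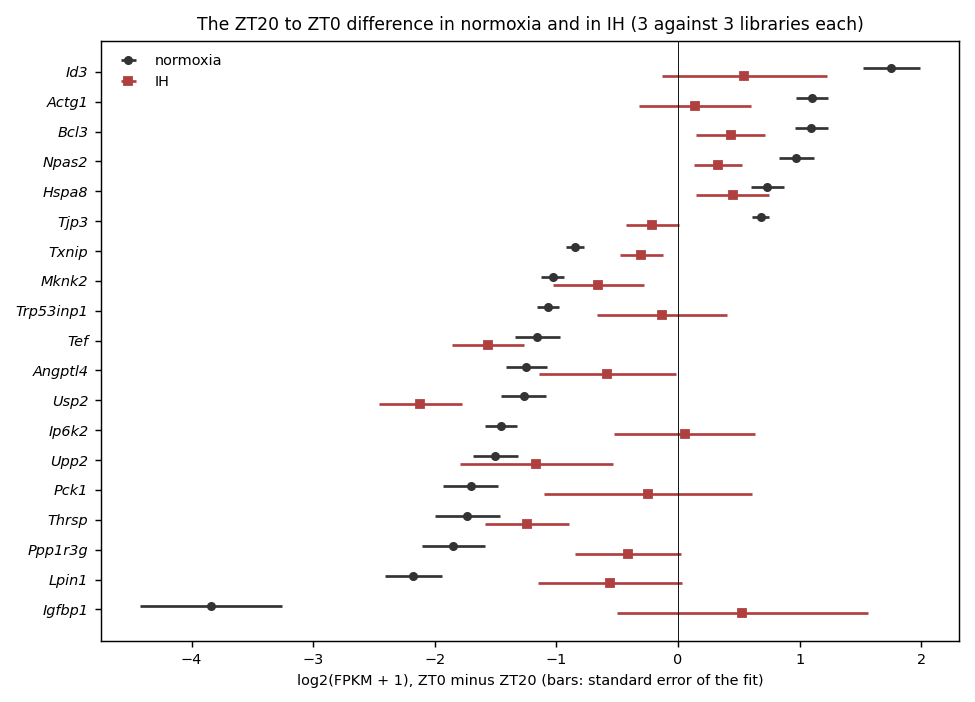
Log2 difference between ZT0 and ZT20 (x axis) with its standard error for 19 named genes (y axis) in normoxia (black circles) and in IH (red squares), 3 against 3 libraries in each. Tef, Usp2 and Thrsp lie on the same side of 0 in both conditions, while the IH values of Igfbp1, Pck1 and Ip6k2 lie within 1 standard error of 0.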

How the data were processed

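Whole-liver RNA of 36 mice was sequenced by the authors as strand-specific, polyadenylated libraries with paired-end reads. The submitters' processing notes name TopHat2 2.1.1, Cufflinks 2.2.1 and the mm10 genome. The deposited values are FPKM per gene symbol as estimated by the authors, with no counts, so depth, counting intervals and count tests are not available here, and precision is known only from the spread between mice. Neither the gene models nor a scaling between libraries are given in the sources used here. Each condition has its own table with the same column names, and the condition was taken from the table's name.

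Of 24346 symbols, the 24066 listed on 1 row were used, and 13215 whose mean across the 36 libraries reached 0.1 FPKM were tested as log2(FPKM + 1), with a pseudocount of 1, using limma 3.58.1 in R 4.3.3 (moderated two-sided test with an intensity trend on the 6 libraries, Benjamini-Hochberg adjustment over all genes). The step in normoxia was set against that in IH as an interaction over 12 libraries. A fold change on this scale understates that of low genes. Libraries, gene lists and genes to name were chosen with earlier results of these data known. The genes named were the 12 in each direction with the smallest P among those with a mean of at least 1 FPKM in the higher group and no overlap between groups (no gene having passed the adjusted threshold), all clock and output genes, the 2 smallest P of each other list and the 3 smallest P of the interaction. Other names were chosen after their values were seen. Some genes that fall under the rule are counted but not reported here. Lists are described by counts and medians without a test. Coordinates and exon GC content came from GENCODE vM21 (GRCm38, the same build as mm10), and promoters from RefSeq. The scripts were tested on simulated data. Figures were drawn with matplotlib 3.10.9. Alternatives were other spreads, pseudocounts, filters and scalings, the replicate block and each library left out, and, added after the data were seen, counts at the P threshold, removal of GC and length trends, and medians of the lists without each library.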

Additional observations from a re-analysis of the deposited data

How the results depend on the processing

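At an adjusted p of 0.05 the comparison of ZT0 with ZT20 gave 0 genes in each direction. It gave 7 higher and 7 lower with the spread of all 18 normoxia libraries, 266 and 63 with 15, and 99 and 96 with 15 and median-ratio scaling. A pseudocount of 0.1 gave 6 lower genes, and 4 were lower with a mean of at least 1 FPKM, median ratios, quantile normalization or the GC and length trend removed. Leaving out each library in turn gave 0 to 2 higher and 0 to 3 lower. At an unadjusted P of 0.01, against 583 higher and 167 lower, the counts were 345 and 92 with 18 libraries, 292 and 319 with median ratios, 281 and 309 with quantile normalization, 269 and 323 with the GC and length trend removed, and 407 lower with median ratios and 15 libraries. Without each library in turn they ran from 262 to 570 higher and from 110 to 189 lower. The cause of these shifts was not tested. Replicate numbers were not treated as pairs in the main fit, and the labels do not say what the numbers stand for. Deviations of same-numbered libraries correlated by -0.28, -0.25 and 0.06, which cannot settle whether such mice shared a batch. A fit with the replicate block gave 252 higher and 121 lower genes at that P, with 0 at the adjusted threshold. For the step in normoxia against IH, 103 genes had an unadjusted P of 0.01 or less, and 0 passed adjustment in any alternative.

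Of 58 named genes at the P threshold, 30 kept it in all alternatives run and 28 lost it in at least 1, and 0 changed sign. Where naming required no overlap between groups, leaving out a library could not change the sign. Of the named genes that did not pass, 6 changed sign. Nr1d1, at 0.00, was -0.029 with a pseudocount of 0.1, -0.049 with median ratios, with or without the 15 libraries, -0.040 with quantile normalization and -0.10 with the GC and length trend removed. Hlf was -0.044, -0.062 and -0.011 under median ratios (also with 15 libraries), quantile normalization and the GC and length trend, and Csnk1e -0.042 under the last. With each library left out, Nr1d1 ran from -0.13 to 0.21, Hlf ran from -0.093 to 0.17, Arntl ran from -0.011 to 0.14, Nfil3 ran from -0.13 to 0.049 and Klf10 ran from -0.27 to 0.22. Depth being unknown, no limit of detection can be given for genes under about 1 FPKM.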

Other observations

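Some genes outside the named lists had differences of at least 1 on the log2 scale at a P of 0.01 or less by limma, and were picked after their values were seen. Inhbe, which encodes an activin subunit made by hepatocytes, measured 10.5, 9.76 and 13.8 FPKM at ZT20 and 36.8, 30.3 and 19.4 FPKM at ZT0 (log2 difference 1.24, standard error 0.24, adjusted p = 0.116). Tsc22d1, a leucine zipper protein induced by TGF-beta, measured 17.5, 31.7 and 19.4 FPKM at ZT20 and 73.5, 52.3 and 41.4 FPKM at ZT0 (log2 difference 1.26, standard error 0.27, adjusted p = 0.132). Neither gene had overlapping groups. Fst, which encodes the activin antagonist follistatin, went the other way, with 4.02, 3.55 and 5.42 FPKM at ZT20 and 1.27, 1.06 and 2.23 FPKM at ZT0 (log2 difference -1.09, standard error 0.20, adjusted p = 0.108).

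Lpin2, a second phosphatidate phosphatase of liver, was lower at ZT0 like Lpin1, with 40.3, 34.6 and 41.6 FPKM at ZT20 and 14.6, 7.02 and 13.7 FPKM at ZT0 (log2 difference -1.70, standard error 0.25, adjusted p = 0.0952). St3gal5, the ganglioside GM3 synthase, measured 46.9, 53.9 and 56.8 FPKM at ZT20 and 28.6, 16.0 and 17.3 FPKM at ZT0 (log2 difference -1.35, standard error 0.21, adjusted p = 0.0952). Of the 2 elastase genes among the pancreas markers, Cela1 averaged 8.65 ± 0.87 FPKM at ZT20 and 17.5 ± 4.25 FPKM at ZT0 (SD, n = 3; log2 difference 0.91, adjusted p = 0.121), and Cela2a, under 1 FPKM in all 6 libraries, was lower by value (-0.27, adjusted p = 0.144), while 6 other markers of that list were at 0.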
